A study of Arabidopsis thaliana with 35 samples.

Results

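The question was how loss of SLN combined with loss of ACD15 and ACD21 in mature Arabidopsis pollen: whether the triple mutant acd15 acd21 sln had the RNA levels of sln, those of the double mutant acd15 acd21, the sum of both changes, or neither. The 20 libraries of wild-type, sln, acd15 acd21 and acd15 acd21 sln were used, 5 of each, out of 35 libraries and 7 genotypes in the series. All were mature pollen of ecotype Col0, from which poly(A) RNA was sequenced. Replicates 1 and 2 of each genotype belonged to batch 1 and replicates 3 to 5 to batch 2. The labels name no alleles, and nothing says whether replicates came from separate plants; the p-values therefore cover only variation among these libraries, some of it possibly technical. The mbd5 mbd6, acd15 and acd21 libraries, also 5 each, were not used in the fit and serve only for levels.

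MBD5 and MBD6 bind DNA that is methylated at CG and recruit silencing activity there. SLN is a J-domain protein, a class of co-chaperone, and ACD15 and ACD21 have the alpha-crystallin domain of small heat shock proteins. The title of the series links all 3 to the accumulation and mobility of MBD6 and to the silencing of genes and transposable elements. Mature pollen holds a vegetative cell, in which some silent loci are demethylated, and the sperm cells, in which silencing is kept.

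In these data the effects did not add on the log scale. For each of 11640 features abundant enough to test, the interaction was the log2 change from the double to the triple mutant minus the log2 change from wild-type to sln. A value of 0 means that the log2 changes add, and a negative value that the triple mutant stood below their sum. The interaction was called (adjusted p under 0.05, edgeR's quasi-likelihood test with a term for batch) for 439 features, 3.77% of those tested. Of these, 357 were lower than the sum (3.07%) and 82 higher (0.704%). The count of 82 was less stable than that of 357. It was 153 without triple mutant replicate 1, 260 with no filter on low counts, 195 with all 35 libraries in the fit, 34 at an adjusted p of 0.01, and 7 and 30 within batches 1 and 2. DESeq2 called 313 lower and 196 higher. The difference was at least 2-fold for 238 of the lower and 20 of the higher. The median over all tested features was -0.02.

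Against wild-type, sln had 438 features higher (3.76%) and 131 lower (1.13%), together 4.89% of those tested. The double mutant had 375 higher (3.22%) and 107 lower (0.919%), together 4.14%. The triple mutant had 405 higher (3.48%) and 222 lower (1.91%), together 5.39%. From the double to the triple mutant 206 features changed (1.77%), 64 of them higher (0.55%) and 142 lower (1.22%). From sln to the triple mutant 302 changed (2.59%), 188 higher (1.62%) and 114 lower (0.979%). The last count rests on single libraries: the calls numbered 757 without triple mutant replicate 1, 185 and 151 without sln replicate 4 and 5, and 174 and 178 without triple mutant replicate 4 and 5. In these bulk samples, fewer cells of a type and less RNA per cell cannot be told apart.

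SLN transcripts followed the labels. SLN (AT5G37380, chromosome 5, 14816734 to 14819346 in TAIR10.1) stood at 4.49 ± 0.287 CPM (counts scaled to library size) in wild-type and 3.94 ± 0.604 in the double mutant (SD, n = 5). It stood at 0.259 ± 0.195 CPM in sln and 0.245 ± 0.0738 in the triple mutant. ACD15.5 (AT1G76440) and ACD21.4 (AT1G54850), the genes taken as ACD15 and ACD21, had at most 1 and 3 counts in any of the 20 libraries, so their transcripts checked no label. MBD6 (AT5G59380) was at 0.812, 0.842, 0.888 and 0.943 CPM in wild-type, sln, the double and the triple mutant. It was not called in any comparison, and its interaction was 0.10 ± 0.40 (log2 ± SE, adjusted p = 0.944 in edgeR).

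Total counts ran from 9297585 to 22208090 per library. Reads in no feature were 0.762 ± 0.169% in wild-type, 0.648 ± 0.121% in sln, 0.492 ± 0.224% in the double and 0.447 ± 0.266% in the triple mutant. None of these differences passed an exact two-sided permutation test that took no account of batch (lowest p = 0.0635, adjusted 0.214). On the leading component of the deviations from the group means, triple mutant replicates 1 and 2 and double mutant replicate 2 lay farthest out, with 0.887%, 0.217% and 0.843% of reads in no feature. Without these 3 libraries the interaction was lower for 349 features and higher for 74.

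Where the triple mutant stood was sorted by 3 calls per feature: the interaction, triple against sln, and triple against double. Among the 439 called interactions, 246 had a triple mutant not called different from either mutant. Another 65 differed from the double only, and so stood with sln. A further 88 differed from sln only, and so stood with the double, and 40 differed from both. The sln and double mutants were themselves called different for only 45 of the 65 and 46 of the 88. The class of 88 fell to 49 and 58 without sln replicate 5 and triple mutant replicate 5, and rose to 176 without triple mutant replicate 1. The class of 40 fell to between 22 and 25 without sln replicate 4 or 5, double mutant replicate 3, or triple mutant replicate 4 or 5. Of the 65 features standing with sln, 38 kept that class without the 3 libraries that lay farthest out. In batch 1 alone 17 of them kept it, and in batch 2 alone 32.

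Not being called different is not the same as being equal. Of the 246 features standing with both, 216 had a 95% interval of the difference from sln within 1 log2 unit of 0, and 197 had such an interval of the difference from the double. Without an interaction call, 25 features differed from both mutants, a class termed the sum. No call does not show additivity: 16 of the 25 had a 95% interval of the interaction within 1 log2 unit of 0. For 2 of the 25, AT5G15360 and AT3G30230, which had no wild-type count, the unadjusted interval lay wholly below 0. Another 149 differed from sln only and 76 from the double only; for these the sum could not be told from a single mutant. The class of 149 rests on single libraries too: it was 496 without triple mutant replicate 1 and between 58 and 86 without sln replicate 4 or 5 or triple mutant replicate 4 or 5. When the fit also adjusted for the reads in no feature, 76 of the 149 were no longer resolved. The class of 25 fell to between 12 and 16 without double mutant replicate 2 or 4 or triple mutant replicate 3, 4 or 5, and the class of 76 to 48 without double mutant replicate 4. The other 10951 features gave too few calls to be sorted.

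**Figure D1:**
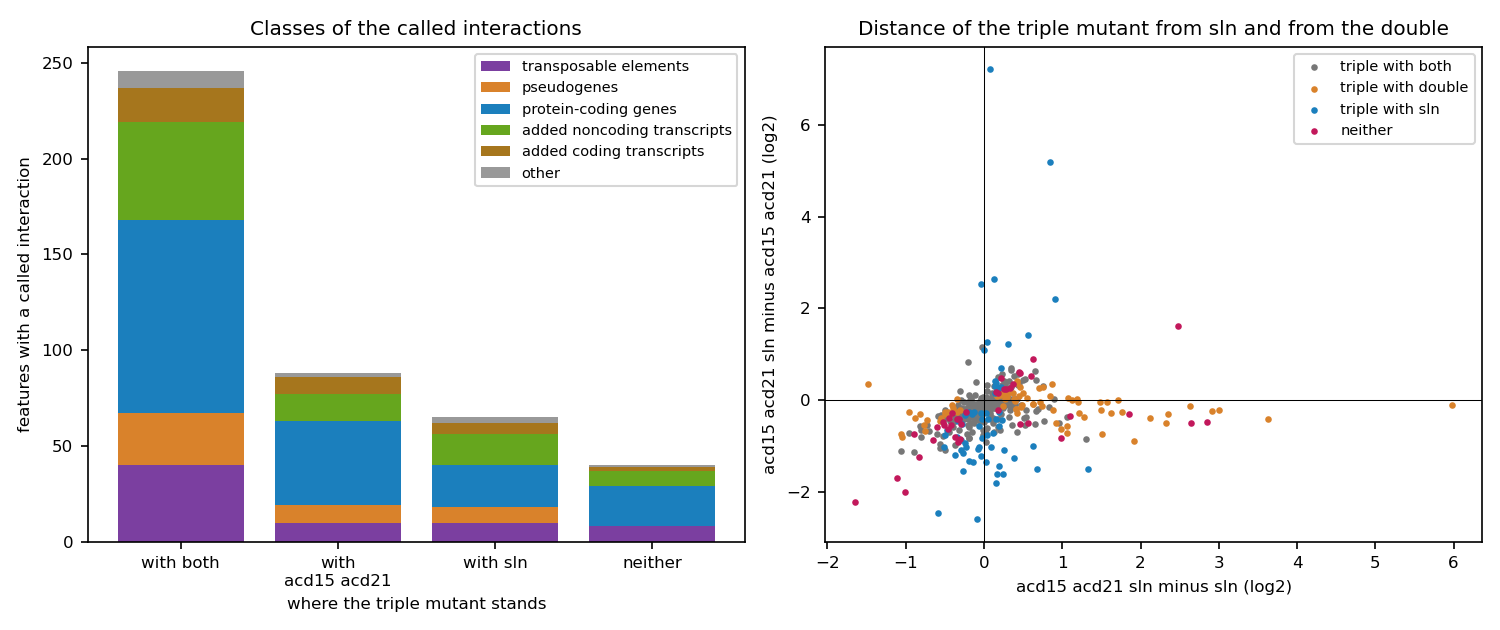
Left, numbers of features with a called interaction by where the triple mutant stood, divided by kind of feature. Right, for each of these 439 features, the log2 difference of the triple mutant from sln (horizontal axis) and from acd15 acd21 (vertical axis); features standing with sln lie along the vertical line at 0 and those standing with the double along the horizontal line.

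Repeated and unannotated sequence made up most of the large interactions. The interaction was called for 68 of 239 tested transposable elements (28.5%) and 44 of 146 pseudogenes (30.1%), against 188 of 9559 protein-coding genes (1.97%). Features silent in wild-type passed the abundance filter only through mutants that raised them. That same rise favours an interaction below the sum. The shares of the tested features are therefore descriptions, not a test of the kinds of feature. An interaction was also called for 89 of 1118 added noncoding transcripts (7.96%) and 35 of 282 added coding transcripts (12.4%). Their identifiers mark them as additions to the annotation, from a source not given here. All but 3 of the transposable elements and all but 1 of the pseudogenes were lower than the sum. Among the lower calls the median interaction was -2.02 in transposable elements, -2.78 in pseudogenes and -2.74 in added noncoding transcripts, against -0.73 in protein-coding genes. Reads with several possible origins are a limit here: how many were set aside is not recorded in the tables, so levels of transposable elements and pseudogenes are uncertain.

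The share of all counts that fell in transposable elements was higher in every mutant than in wild-type. It was 0.292 ± 0.0162% in wild-type, 0.403 ± 0.0347% in sln, 0.424 ± 0.0325% in the double and 0.377 ± 0.0318% in the triple mutant (SD, n = 5). Every mutant library lay above every wild-type library (exact two-sided permutation p = 0.00794, adjusted 0.0159 over 6 comparisons, for each mutant). The permutations of this share took no account of batch. The triple mutant minus the double was -0.0465 percentage points, which did not pass the test (exact permutation p = 0.0556, adjusted 0.0833). That difference was -0.0329 points in batch 1 and -0.0556 in batch 2. The triple mutant also did not pass against sln (exact permutation p = 0.254, adjusted 0.305), nor did the double (p = 0.373, adjusted 0.373).

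Most features raised by sln in plants with ACD15 and ACD21 were not called higher with its loss in plants without them. Of the 438 features that sln raised over wild-type, 18 also rose from the double to the triple mutant, 50 fell and 370 were not called. The median log2 change of the 438 was 1.15 in the first comparison and -0.08 in the second, which share no library. Of the 240 that rose at least 2-fold, 10 rose and 43 fell. The interaction, which also uses the libraries that chose the 438, was called for 288 of them.

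The effect of losing ACD15 and ACD21 was compared in the same way with and without SLN. Of 375 features raised in the double over wild-type, 80 also rose from sln to the triple mutant, 10 fell and 285 were not called. The median log2 change went from 1.84 to 0.11. Of the 268 that rose at least 2-fold, 72 rose again and 9 fell. Whether 80 of 375 differs from 18 of 438 was not tested, and the triple against sln calls behind the 80 ran from 151 to 757 when 1 library was left out. Across the 10432 features at 1 CPM or more in at least 1 genotype, Pearson's r between the effect of sln in wild-type and in the double was -0.146 (Spearman's rho -0.05), and that between the effect of acd15 acd21 in wild-type and in sln was 0.449 (rho 0.04). These are across features, which are not independent replicates.

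**Figure D2:**
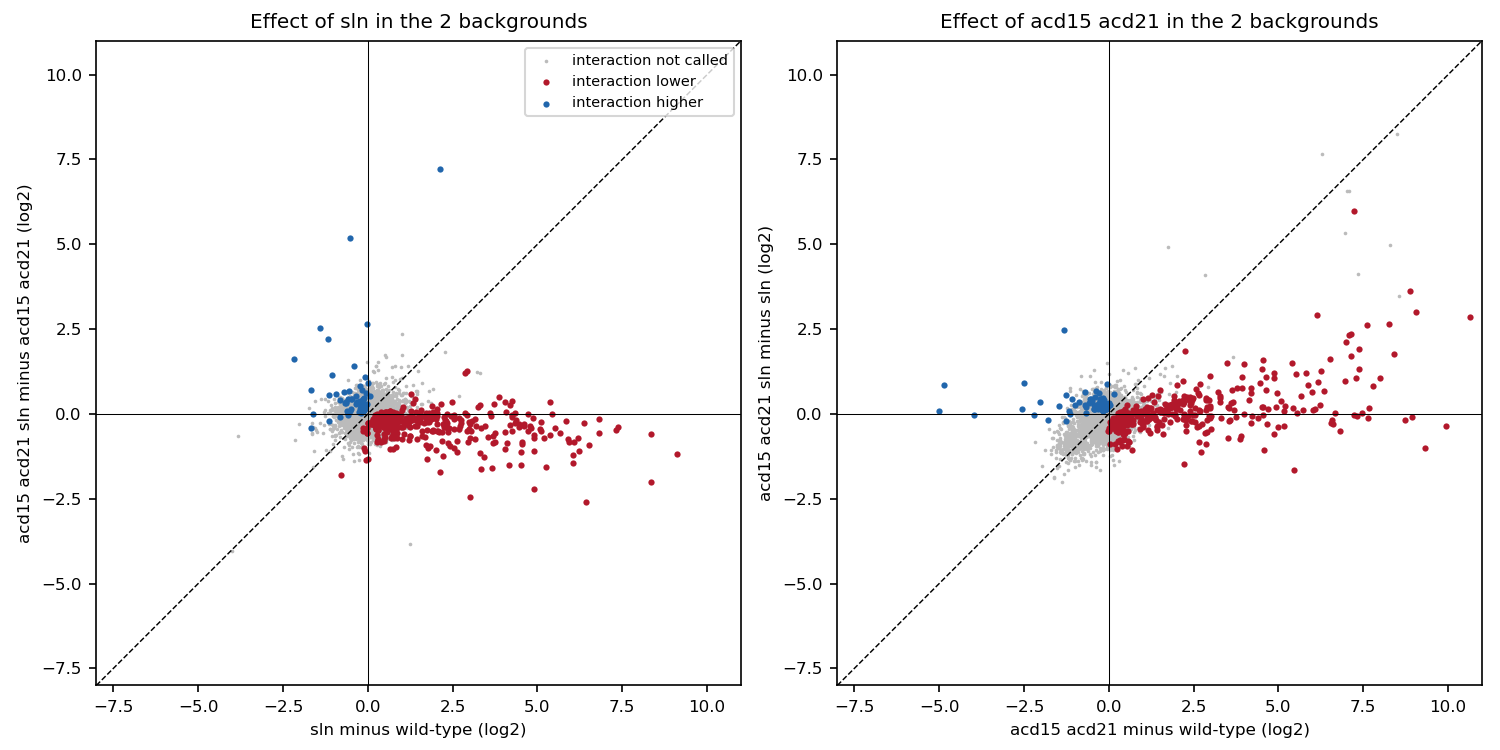
Each point is 1 of 11640 features. Left, log2 change from wild-type to sln (horizontal) and from acd15 acd21 to acd15 acd21 sln (vertical); right, log2 change from wild-type to acd15 acd21 (horizontal) and from sln to acd15 acd21 sln (vertical). Additive features lie on the dashed diagonal. Red points, called lower than the sum, spread along the horizontal axis on the left. On the right some of them also lie well above that axis.

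In all, 282 features were raised in both sln and the double mutant, and 258 of them had a called interaction, every one lower than the sum. The libraries that chose these features also enter the interaction, and choosing raised features favours a negative value. The direction is therefore a description. They included 208 of the 238 interactions that were at least 2-fold lower than the sum. Their median level was 0.653 CPM in wild-type, 3.72 in sln, 5.58 in the double and 4.42 in the triple mutant. The triple mutant lay above both mutants for 49, between them for 137 and below both for 96. The double lay above sln for 243. The median ratio of the triple mutant to the higher of the other mutants was 0.863. Taking the higher mean lowers this ratio even where the mutants are equal, so the ratio alone does not show a lower triple mutant. Set against a sum on the linear scale, the triple mutant lay below wild-type plus both increases for 278 of the 282. The choice of raised features favours this side too. By test, 50 were lower in the triple than in the double and 7 higher, while 10 were lower than in sln and 55 higher. They comprised 77 added noncoding transcripts, 65 transposable elements, 56 protein-coding genes and 46 pseudogenes.

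**Figure D3:**
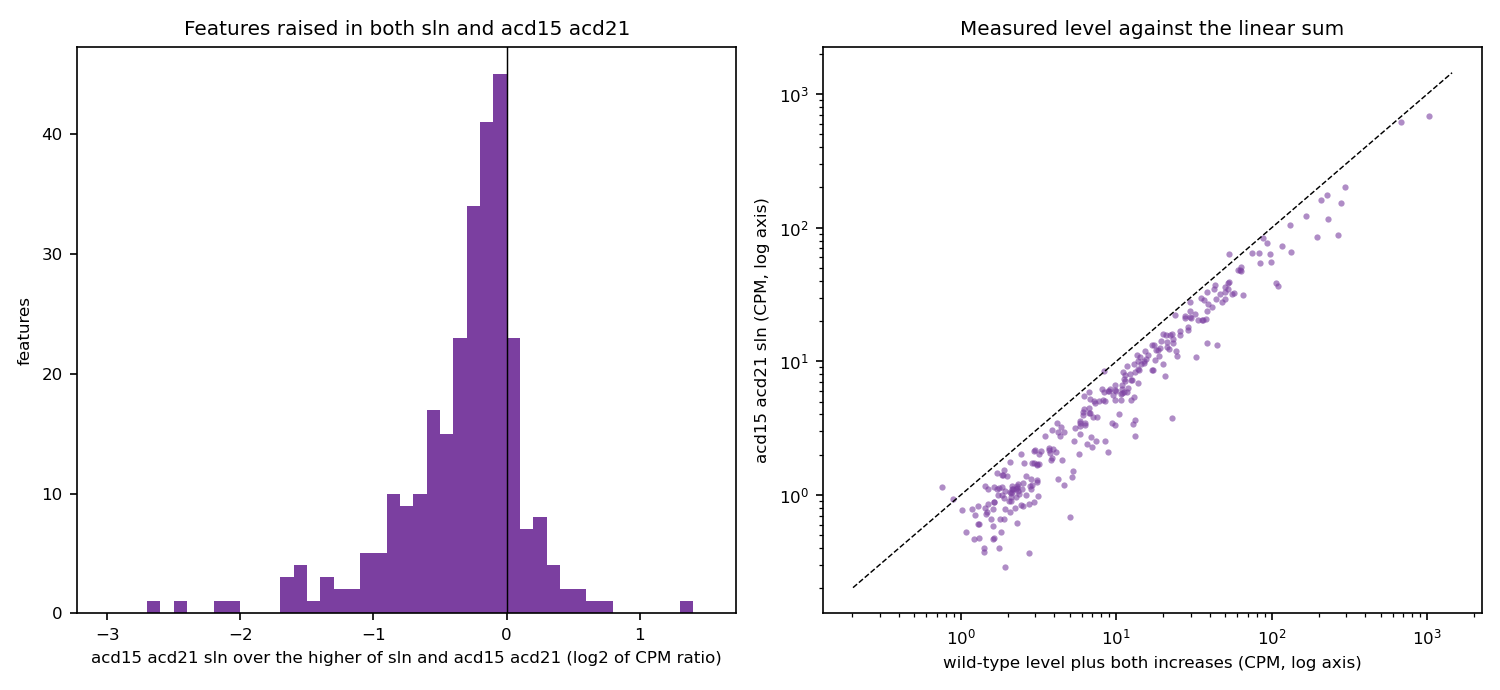
The 282 features raised in both sln and acd15 acd21. Left, histogram of the log2 ratio of the triple mutant's mean CPM to the higher of the sln and double mutant means. Of these features, 233 lie at or below 0, a side that taking the higher mean favours. Right, triple mutant CPM against the wild-type level plus both increases, on log axes; 278 points lie below the dashed line of equality.

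Of the 246 features standing with both mutants, 159 were called higher than wild-type in both, 13 lower in both, and 32 were called in neither. AT3G31470, a pseudogene on chromosome 3 (12818516 to 12820597), is the plainest case. Its wild-type libraries, replicates 1 to 5, held 6.11, 8.10, 6.16, 3.65 and 7.55 CPM, and its sln libraries 112, 125, 124, 124 and 113. The double held 121, 128, 116, 105 and 117 CPM and the triple mutant 136, 119, 108, 112 and 102. All 15 mutant libraries overlapped among themselves and stood far above wild-type. The triple mutant differed by -0.05 ± 0.08 (log2 ± SE) from sln and by -0.03 ± 0.08 from the double. Additive log2 changes would have given 2221 CPM, and the interaction was -4.28 ± 0.14 (adjusted p = 8.51e-15 in edgeR).

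AT2G16560, a pseudogene on chromosome 2 (7173003 to 7176689), had a similar pattern. It had 0.705, 0.501, 0.739, 0.252 and 0.489 CPM in wild-type and 11.8, 11.5, 11.6, 10.6 and 9.93 in sln. The double mutant libraries held 12.4, 13.7, 12.8, 13.0 and 16.2 CPM and the triple mutant libraries 14.4, 11.9, 11.7, 9.92 and 11.97. The double reached highest, and its range overlapped that of the triple mutant, whose interaction was -4.55 ± 0.20 (adjusted p = 1.69e-17 in edgeR). The transposable element AT1TE46840 rose from 3.57 ± 0.436 CPM in wild-type to 12.3 ± 0.485 in sln, 13.0 ± 0.777 in the double and 12.3 ± 0.800 in the triple mutant. Its interaction was -1.85 ± 0.12. The pseudogene AT5G35076 (chromosome 5, 13348106 to 13353283) went from 3.08 to 18.1, 23.0 and 20.7 CPM, with an interaction of -2.70 ± 0.14. The added transcript novel_Chr5_noncoding_671 had no count in wild-type and reached 2.79, 3.67 and 2.40 CPM, at least 63.0-fold, 81.9-fold and 55.0-fold above a floor of 3 counts over the 5 wild-type libraries.

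Among the 246 features of this class, 210 were lower than the sum. Over all 246 the median change from wild-type was 0.89 in sln, 1.04 in the double and 0.86 in the triple mutant. Protein-coding genes numbered 101, transposable elements 40 and pseudogenes 27. Of the 36 that were higher than the sum, 17 were called lower than wild-type in sln and 18 in the double, and none was called higher in either.

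RIF10 (AT3G03710, chromosome 3, 919362 to 925372), which encodes the plastid polynucleotide phosphorylase, was lowered to overlapping levels in all 3 mutants. It had 2.82, 3.84, 3.04, 2.46 and 4.82 CPM in wild-type and 1.25, 0.632, 1.16, 1.36 and 1.12 in sln. It had 0.555, 0.817, 1.24, 1.15 and 1.03 CPM in the double and 0.809, 1.33, 1.46, 0.735 and 0.570 in the triple mutant. The mutant ranges overlapped and none reached the lowest wild-type library. The triple mutant was 0.00 ± 0.30 (log2 ± SE) from the double, and the interaction of 1.62 ± 0.37 (adjusted p = 0.00561 in edgeR) was 2.41 within batch 1, 1.21 within batch 2 and 1.425 without the 3 outlying libraries, where it was no longer called (0.0517, 0.234 and 0.0636). FRO4 (AT5G23980), a ferric reductase gene, went from 2.29 CPM to 1.22, 1.06 and 1.60 (interaction 1.51 ± 0.27, adjusted p = 0.000231 in edgeR, and 0.0685 and 0.0611 within batches 1 and 2). AT3G03570 went from 1.94 CPM to 0.893, 0.694 and 1.04 (1.70 ± 0.30, 0.000171, and 0.536 within batch 1). In all, 30 features were lower in both sln and the double, and 16 of them had a called interaction, each higher than the sum. Choosing lowered features favours that direction, as the same libraries enter the interaction.

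The triple mutant stood with sln for 65 features, and for some the double mutant was on the other side of wild-type. NAC105 (AT5G66300, chromosome 5, minus strand, 26479766 to 26481528), which encodes a NAC-domain transcription factor of the vascular tissue, had the largest positive interaction among features at 1 CPM or more in at least 1 genotype. Its libraries held 4.78, 6.01, 6.57, 5.86 and 6.36 CPM in wild-type and 25.7, 26.9, 24.3, 24.2 and 27.8 in sln. They held 0.159, 0.454, 0.138, 0.05005 and 0.182 CPM in the double and 31.4, 25.6, 23.4, 25.9 and 29.4 in the triple mutant. The double was below every wild-type library, while sln and triple mutant libraries overlapped each other above all of wild-type.

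NAC105 was thus raised 4.33-fold by sln (log2 2.12 ± 0.10, adjusted p = 8.98e-17 in edgeR) and lowered 32.3-fold in the double (log2 -5.01 ± 0.23, adjusted p = 1.60e-17 in edgeR). From the double to the triple mutant it rose by 7.21 ± 0.18 on the log2 scale (adjusted p = 1.22e-23 in edgeR). The triple mutant differed from sln by 0.08 ± 0.09 (95% interval -0.09 to 0.26, adjusted p = 0.669 in edgeR). Additive changes would have given 0.856 CPM, against 27.1 ± 3.22 measured, and the interaction was 5.10 ± 0.25 (adjusted p = 4.30e-16 in edgeR). It was 4.25 in batch 1 and 5.69 in batch 2.

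Because the MBD proteins bind methylated CG, the 250 bases before the start of 4 genes described in detail here are shown, 5′ to 3′ on the strand of the gene, with each CG in capitals; sequences and starts are those of RefSeq for TAIR10.1. The window of NAC105 (chr5:26481529-26481778, minus strand) had 3 CG, and that of AT5G37970 (chr5:15124436-15124685, minus strand) 7.
NAC105: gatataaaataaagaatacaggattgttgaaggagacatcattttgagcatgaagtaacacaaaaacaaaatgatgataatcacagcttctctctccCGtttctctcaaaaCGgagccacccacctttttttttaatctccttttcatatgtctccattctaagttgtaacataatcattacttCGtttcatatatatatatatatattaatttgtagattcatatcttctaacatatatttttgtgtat
AT5G37970: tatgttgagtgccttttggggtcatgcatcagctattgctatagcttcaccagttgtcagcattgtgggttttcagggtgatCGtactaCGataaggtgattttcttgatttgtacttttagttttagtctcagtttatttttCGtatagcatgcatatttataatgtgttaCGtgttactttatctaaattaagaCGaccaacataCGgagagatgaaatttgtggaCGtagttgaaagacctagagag
The window of FWA (chr4:13038110-13038359, plus strand) had 7 CG and that of AT1G67750 (chr1:25401264-25401513, plus strand) 3.
FWA: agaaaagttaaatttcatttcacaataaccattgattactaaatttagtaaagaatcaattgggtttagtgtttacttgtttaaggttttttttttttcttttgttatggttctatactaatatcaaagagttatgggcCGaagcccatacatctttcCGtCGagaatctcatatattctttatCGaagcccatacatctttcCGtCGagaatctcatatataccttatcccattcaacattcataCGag
AT1G67750: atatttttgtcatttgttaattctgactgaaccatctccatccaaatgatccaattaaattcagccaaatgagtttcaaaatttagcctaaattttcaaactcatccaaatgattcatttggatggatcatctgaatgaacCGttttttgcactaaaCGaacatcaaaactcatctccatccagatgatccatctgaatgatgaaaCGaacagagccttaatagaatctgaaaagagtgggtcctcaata
Of the 9973 tested genes with such a window, 96.7% held at least 1 CG on the strand read, which for CG is both strands, and the median was 5. The median was also 5 for the 243 of these genes with a called interaction, 6 for those standing with both, 5 for those standing with sln or with the double, and 4 for the 22 standing with neither. Among pseudogenes it was 6 for all 146 tested and 8 for the 44 with a called interaction. The windows say nothing on whether these CG are methylated in pollen, which was not measured here.

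AT5G37970 (chromosome 5, minus strand, 15123089 to 15124435), annotated as a methyltransferase of the S-adenosyl-L-methionine-dependent superfamily, was lowered by both mutations but less in the triple than in the double mutant. It had 3.995, 5.60, 6.81, 5.36 and 6.22 CPM in wild-type and 2.50, 2.05, 2.54, 1.5 and 2.02 in sln. It had 0.476, 0.363, 0.276, 0.350 and 0.304 CPM in the double and 1.99, 1.99, 2.40, 1.23 and 2.34 in the triple mutant. The triple mutant overlapped sln and lay above every double mutant library. It differed from the double by 2.53 ± 0.26 (log2 ± SE, adjusted p = 4.80e-08 in edgeR) and from sln by -0.04 ± 0.18, and the interaction was 3.94 ± 0.30 (adjusted p = 1.22e-11 in edgeR).

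The added transcript novel_Chr5_coding_282 was at 1.60 ± 0.478 CPM in wild-type, 1.55 ± 0.0431 in sln, 0.251 ± 0.153 in the double and 1.69 ± 0.295 in the triple mutant. Its decrease in the double was not seen in the triple mutant, with an interaction of 2.68 ± 0.37 (adjusted p = 3.44e-06 in edgeR) and no call between triple mutant and wild-type (0.10 ± 0.22, interval -0.35 to 0.54). The added transcript novel_Chr3_noncoding_436 went from 1.102 CPM in wild-type to 0.495, 0.2 and 0.883 (interaction 3.40 ± 0.47, adjusted p = 3.91e-06 in edgeR, and 0.164 within batch 1). RAP2.11 (AT5G19790), an AP2-family transcription factor gene chosen after its values were seen, was below 1 CPM throughout: 0.626 in wild-type, 0.410 in sln, 0.0182 in the double and 0.806 in the triple mutant (interaction adjusted p = 2.74e-06 in edgeR).

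The pseudogene AT1G43590 (chromosome 1, 16414121 to 16414627) was the reverse of NAC105. It had 7.83, 10.6, 10.7, 9.58 and 9.78 CPM in wild-type, 5.91, 3.95, 6.01, 5.59 and 6.48 in sln, 20.2, 22.4, 22.1, 24.8 and 20.4 in the double and 6.40, 4.72, 5.68, 7.47 and 7.07 in the triple mutant. The double was above all of wild-type, and sln and triple mutant libraries were below all of it. From the double to the triple mutant it fell by 1.81 on the log2 scale (SE 0.10, adjusted p = 1.61e-13 in edgeR). The interaction was -1.03 ± 0.15 (adjusted p = 1.22e-05 in edgeR, and 0.168 within batch 1). Besides NAC105 and AT1G43590, 1 feature was called in opposite directions in sln and in the double. This transposable element, AT1TE62360, stood at 0.280, 0.0131, 0.953 and 0.608 CPM, and its interaction was not called (adjusted p = 0.0924 in edgeR).

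In 51 of the 65 features standing with sln the interaction was lower than the sum, and in 49 of these the double lay above sln. Their median level was 0.793 CPM in wild-type, 4.84 in sln, 8.06 in the double and 4.29 in the triple mutant. In these features loss of SLN thus went with a lower level in plants without ACD15 and ACD21. The sorting largely sets this order, since it asks for a triple mutant called different from the double and not from sln. The pseudogene AT4G07498 (chromosome 4, 4296141 to 4297736) had 5.41, 5.93, 4.35, 4.73 and 7.20 CPM in wild-type and 67.2, 78.1, 72.9, 73.5 and 82.3 in sln. It had 121, 124, 125, 126 and 136 CPM in the double and 85.2, 70.5, 81.3, 90.7 and 97.6 in the triple mutant. Every triple mutant library was below every double mutant library and its range overlapped that of sln. It fell by 0.57 on the log2 scale from the double to the triple mutant (SE 0.07, adjusted p = 1.14e-05 in edgeR).

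The added transcript novel_Chr4_noncoding_193 showed this more strongly, with 13.7 ± 1.77 CPM in sln, 30.6 ± 4.03 in the double and 13.3 ± 2.84 in the triple mutant, from 0.193 ± 0.148 in wild-type. AT4G06688 (chromosome 4, 3920693 to 3924437), annotated as a myosin heavy chain-like protein, went from 0.793 CPM to 13.5, 19.9 and 10.8. The transposable elements AT3TE53895 (0.198, 9.92, 14.7 and 11.02 CPM) and AT5TE39425 (8.57, 35.4, 38.8 and 31.6 CPM) did likewise. In novel_Chr3_coding_275, which had no wild-type count, levels of 0.761 and 0.686 CPM in sln and the triple mutant stood against 4.27 in the double, and the triple mutant minus the double was -2.60 (log2, adjusted p = 3.98e-08 in edgeR). The merged locus novel_Chr2_merged_2, also without a wild-type count, had 4.73, 8.45 and 3.65 CPM in sln, the double and the triple mutant. Over all features, 50 were raised by sln in wild-type and lowered by it in the double mutant, 15 of them transposable elements, 16 added noncoding transcripts and 7 pseudogenes.

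The triple mutant stood with the double for 88 features, among them FWA. FWA (AT4G25530, chromosome 4, 13038360 to 13042464), which encodes a homeodomain transcription factor and is kept silent by methylation of its repeats, and AT1G67750 were taken up with their values in view. FWA had 1.02, 0.585, 0.410, 0.441 and 0.559 CPM in wild-type and 5.45, 7.19, 5.43, 6.82 and 5.47 in sln. It had 8.89, 8.08, 7.53, 9.26 and 7.90 CPM in the double and 8.60, 11.3, 11.2, 9.19 and 10.1 in the triple mutant. All sln libraries were below all double mutant libraries, and the triple mutant overlapped the double at its upper end. FWA was 9.91-fold, 13.8-fold and 16.7-fold above wild-type in sln, the double and the triple mutant.

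The triple mutant exceeded sln in FWA by 0.75 ± 0.11 (log2 ± SE, adjusted p = 5.77e-05 in edgeR) and was 0.28 ± 0.11 from the double (interval 0.05 to 0.50, adjusted p = 0.291 in edgeR). On the linear scale wild-type plus both increases came to 13.8 CPM, against 10.1 ± 1.19 measured and 83.9 for additive log2 changes. The interaction was -3.03 ± 0.22 (adjusted p = 2.26e-12 in edgeR), -2.73 in batch 1 and -3.30 in batch 2.

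AT1G67750 (chromosome 1, 25401514 to 25403595), a pectate lyase family gene, had its large increase in the mutants without ACD15 and ACD21. It had 2.90, 4.84, 4.51, 4.41 and 5.59 CPM in wild-type and 10.4, 8.53, 10.9, 10.4 and 9.21 in sln. It had 695, 708, 681, 626 and 646 CPM in the double and 601, 655, 603, 634 and 609 in the triple mutant. Each sln library was above each wild-type library, and both were far below the other mutants, which overlapped. The triple mutant was 138-fold above wild-type and differed from the double by -0.11 ± 0.06 (log2 ± SE, interval -0.24 to 0.01). Additive log2 changes would have given 1492 CPM, while wild-type plus both increases came to 677, and the interaction was -1.25 ± 0.13 (adjusted p = 7.51e-09 in edgeR).

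The transposable element AT3TE51735 had the same order at lower levels. It had 0.157, 0.167, 0, 0.0630 and 0.280 CPM in wild-type, 6.43, 9.24, 8.47, 9.68 and 7.52 in sln, 72.4, 70.7, 70.1, 83.2 and 79.3 in the double and 56.3, 63.0, 73.5, 63.8 and 68.0 in the triple mutant. Each sln library lay between wild-type and the other mutants, which overlapped in part. The triple mutant was above sln by 3 ± 0.08 (log2 ± SE, adjusted p = 5.26e-21 in edgeR) and differed by -0.21 ± 0.07 from the double (adjusted p = 0.149 in edgeR). The added transcript novel_Chr2_noncoding_126 was at 0.0979, 4.94, 15.9 and 15.8 CPM, with the triple mutant -0.01 ± 0.09 from the double.

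Of the 88, 66 were lower than the sum, with medians of 1.22 CPM in wild-type, 4.30 in sln, 8 in the double and 6.60 in the triple mutant. In 46 of the 66 the double was above sln. The 22 that were higher than the sum were abundant transcripts with small differences, of medians 61.9, 56.2, 59.8 and 64.4 CPM, and 19 of them were protein-coding genes. Where sln and the double themselves differed at least 2-fold by a call, which was so for 65 of the 439, the triple mutant stood with sln for 24, with the double for 28, with both for 7 and with neither for 6. The double was the higher of the mutants for 57 of the 65.

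**Figure D4:**
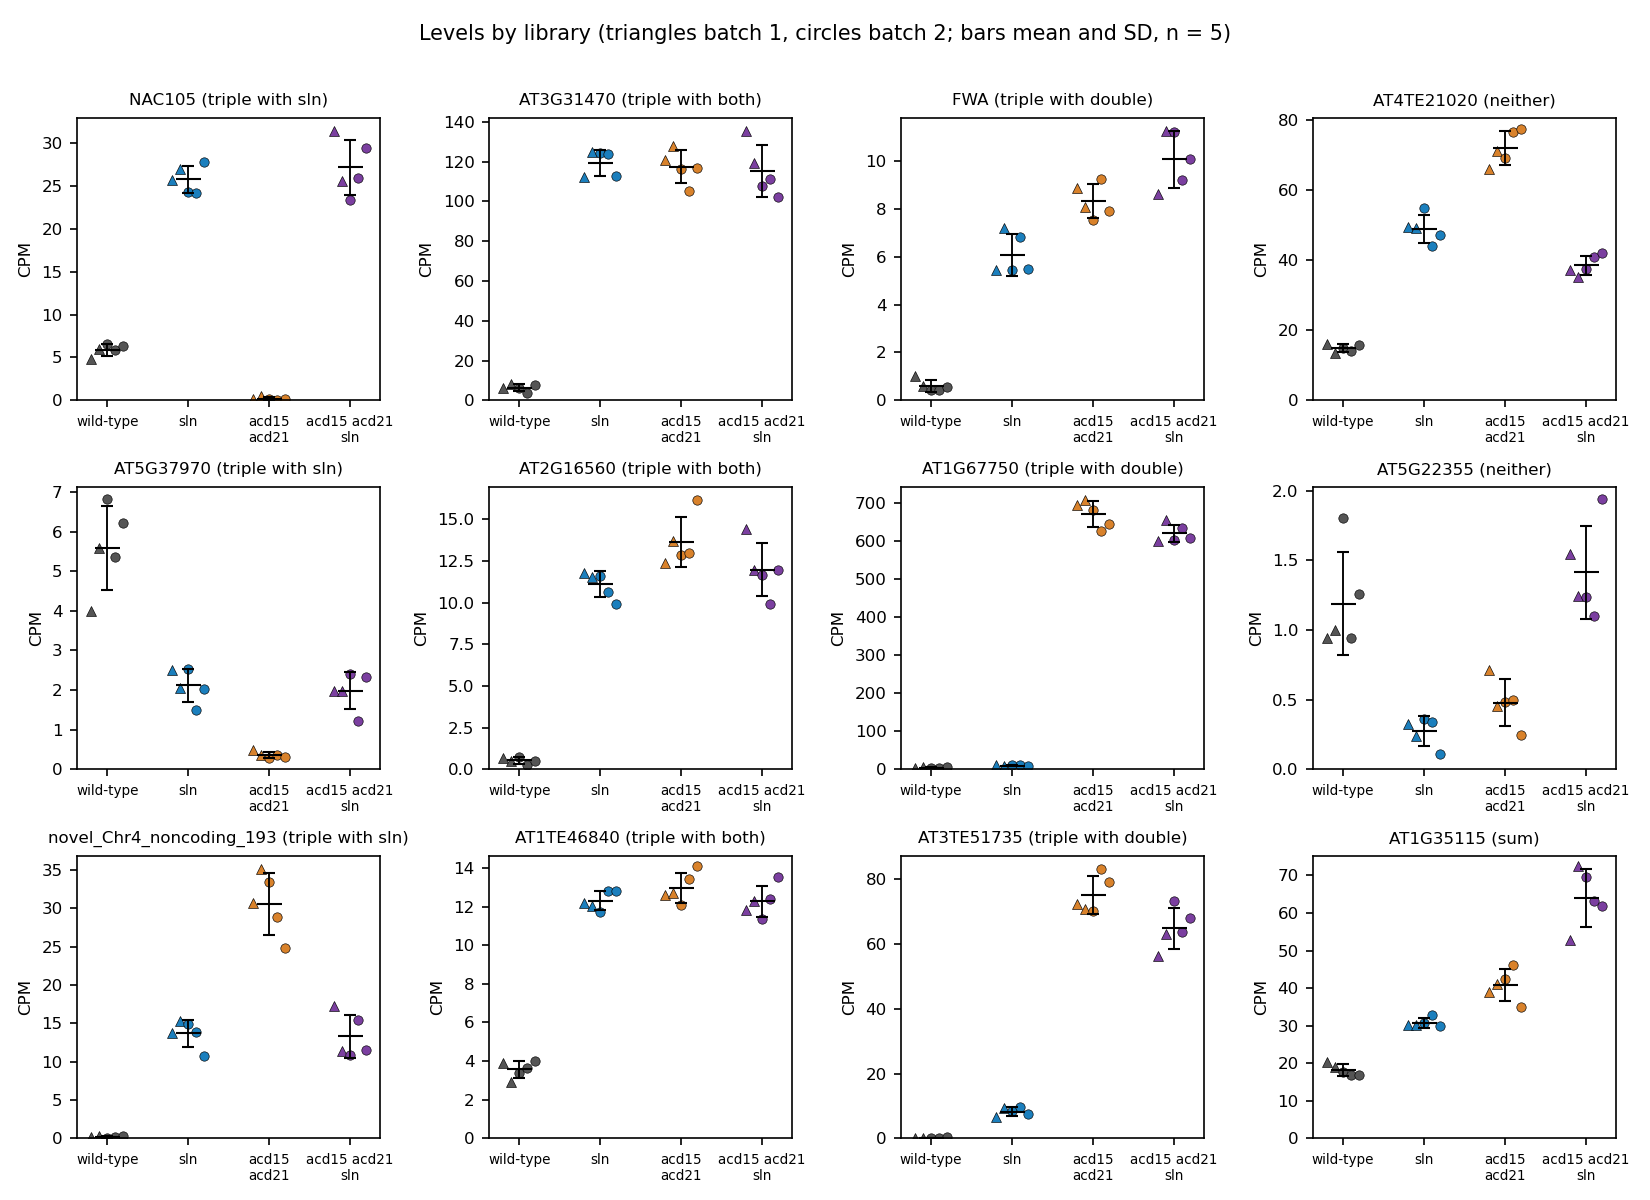
Levels of 12 features in the 20 libraries, in CPM on linear axes from 0. Triangles are batch 1 and circles batch 2, and bars give the mean and SD of 5 libraries. Columns hold, from the left, features with the triple mutant at sln, at both mutants, at the double, and, last, AT4TE21020 and AT5G22355 at neither with AT1G35115 in the class of the sum.

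In 40 features the triple mutant differed from both mutants, and in several raised features it fell below both. Of the 40, 21 were protein-coding genes, and 19 were called against wild-type in neither sln nor the double. The median log2 change from wild-type was 0.29 in sln and 0.36 in the double. The features described next are mostly the strongly raised ones. The transposable element AT4TE21020 had 16.1, 13.4, 14.9, 13.9 and 15.65 CPM in wild-type and 49.5, 49.1, 54.8, 43.9 and 47.1 in sln. It had 66.03, 71.1, 69.1, 76.4 and 77.4 CPM in the double and 37.05, 35.1, 37.5, 40.8 and 41.9 in the triple mutant. No ranges overlapped, and the triple mutant lay between wild-type and sln. It was below sln by a log2 difference of -0.34 ± 0.06 (adjusted p = 0.00111 in edgeR) and below the double by -0.90 ± 0.06 (adjusted p = 4.20e-12 in edgeR), and the interaction was -2.62 ± 0.09.

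Added transcripts and an element numbered on the same chromosome showed this order too. The transcript novel_Chr4_coding_55 was at 1.66, 110, 158 and 88.5 CPM in wild-type, sln, the double and the triple mutant, and AT4TE17125 at 2.03, 47.8, 64.5 and 36.7. The transcript novel_Chr4_coding_54 had 1 count in wild-type. It held 7.16, 9.16, 8.04, 6.89 and 7.05 CPM in sln, 13.2, 15.9, 15.3, 15.8 and 15.2 in the double and 3.31, 5.39, 4.52, 2.69 and 2.91 in the triple mutant. These mutant ranges did not overlap. Its ratio to wild-type was 505 in sln (95% counting interval 90.3 to 19970) and 253 in the triple mutant (44.9 to 10020), and the triple mutant was below sln by -1.005 ± 0.14 and below the double by -2.002 ± 0.13 on the log2 scale (adjusted p = 1.67e-05 and 4.20e-12 in edgeR). Whether these features overlap was not examined, since positions of added transcripts and transposable elements were not used here, and overlapping features could share reads.

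Of the 282 features raised in both mutants, 9 were called below both in the triple mutant and 4 above both. Others of the 40 lay in between: AT1TE70815 was at 0.892, 8.04, 21.7 and 17.1 CPM, and novel_Chr3_noncoding_833, without a wild-type count, at 1.39, 13.6 and 9.75 CPM in sln, the double and the triple mutant. Those levels were at least 30.6-fold, 308-fold and 222-fold above the floor of 3 wild-type counts. AT5G22355 (chromosome 5, 7401707 to 7403972), which encodes a protein with C1 domains, was low in either mutant and at levels overlapping wild-type in the triple mutant. It had 0.940, 1.002, 1.81, 0.945 and 1.26 CPM in wild-type, 0.328, 0.237, 0.362, 0.341 and 0.108 in sln, 0.714, 0.454, 0.484, 0.500 and 0.243 in the double and 1.54, 1.24, 1.24, 1.102 and 1.94 in the triple mutant. Wild-type and triple mutant libraries overlapped, above all others. The interaction was 3.80 ± 0.45 (adjusted p = 1.79e-07 in edgeR), and the triple mutant differed from wild-type by 0.29 ± 0.26 (interval -0.23 to 0.82). In the acd15 mutant it was at 1.52 CPM and in acd21 at 0.383.

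Few features fell in the class of the sum. The pseudogene AT1G35115 (chromosome 1, 12842158 to 12845455) rose stepwise. It had 20.4, 19.0, 17.65, 16.8 and 16.9 CPM in wild-type, 30.1, 30.2, 30.6, 32.9 and 29.8 in sln, 38.9, 41.2, 42.6, 46.2 and 35.0 in the double and 52.9, 72.5, 69.7, 63.1 and 61.8 in the triple mutant. No ranges overlapped. Additive log2 changes would have given 69.1 CPM against 64.0 ± 7.66 measured, and the interaction was -0.11 ± 0.11 (interval -0.34 to 0.13, adjusted p = 0.696 in edgeR).

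SYP122 (AT3G52400, chromosome 3, 19425632 to 19427230), a plasma membrane syntaxin gene, rose in the mutants without ACD15 and ACD21 and not in sln. It had 0.0783, 0.251, 0, 0.126 and 0.0699 CPM in wild-type and 0.0657, 0, 0.217, 0.0682 and 0.144 in sln. It had 13.8, 15.6, 13.3, 14.8 and 19.2 CPM in the double and 10.5, 9.53, 10.4, 9.80 and 13.9 in the triple mutant. Wild-type and sln overlapped near 0, and the triple mutant was lower than the double by a log2 difference of -0.49 ± 0.12 (adjusted p = 0.0226 in edgeR). Its interaction of -0.50 had a wide interval of -1.97 to 0.96, with only 7 counts over the wild-type libraries. Additive log2 changes would have given 14.5 CPM, close to the 15.3 of the double, so sum and double were nearly the same expectation. AT2TE03160 had no count in wild-type or sln and 3.11 ± 0.515 and 2.62 ± 0.376 CPM in the double and the triple mutant.

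AT5G15360 (chromosome 5, 4987437 to 4989182), had no count in wild-type and 1 in sln. It held 3.41, 2.09, 3.45, 3.75 and 3.34 CPM in the double and 0.221, 0.249, 0.146, 0.367 and 0.171 in the triple mutant. Every triple mutant library was below every double mutant library, by a log2 difference of -3.84 ± 0.29 (adjusted p = 5.36e-10 in edgeR). In the acd15 and acd21 mutants it was at 0.217 and 0.175 CPM. AT1G67105, a noncoding RNA gene, moved the other way, at 0.182, 0.222, 1.36 and 3.94 CPM, with a triple mutant range of 1.397 to 6.12. SNRK2-8 (AT1G78290), a protein kinase gene of the osmotic stress response, was at 1.26, 2.58, 0.892 and 3.04 CPM; it rose from the double to the triple mutant (1.73 ± 0.23, adjusted p = 6.18e-06 in edgeR), while its interaction of 0.71 ± 0.32 was not called (adjusted p = 0.237 in edgeR).

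The mbd5 mbd6 libraries, which played no part in the sorting, stood nearer on the log2 scale to sln than to the double for 40.7% of all tested features. Among the 65 features standing with sln they were nearer to sln for 40 (61.5%), among the 88 standing with the double for 26 (29.5%), and among the 246 standing with both for 109 (44.3%). These are descriptions, as the sln and double mutant libraries entered both the sorting and the distance. NAC105 in mbd5 mbd6 was at 26.9 ± 2.76 CPM, near its sln and triple mutant levels, while in acd15 and acd21 it was at 0.309 and 0.0776. AT5G37970 was at 2.39 ± 0.499 CPM and novel_Chr5_coding_282 at 1.70 ± 0.381, likewise near sln. AT1G67750 at 552 ± 25.5 CPM, SYP122 at 7.37 ± 1.39, AT3TE51735 at 44.3 ± 3.04 and FWA at 8.54 ± 0.844 were nearer to the double on the log2 scale. AT1G43590, which the double raised, was at 8.06 ± 1.13 CPM in mbd5 mbd6 and at 7.02 and 7.07 in acd15 and acd21.

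**Figure D5:**
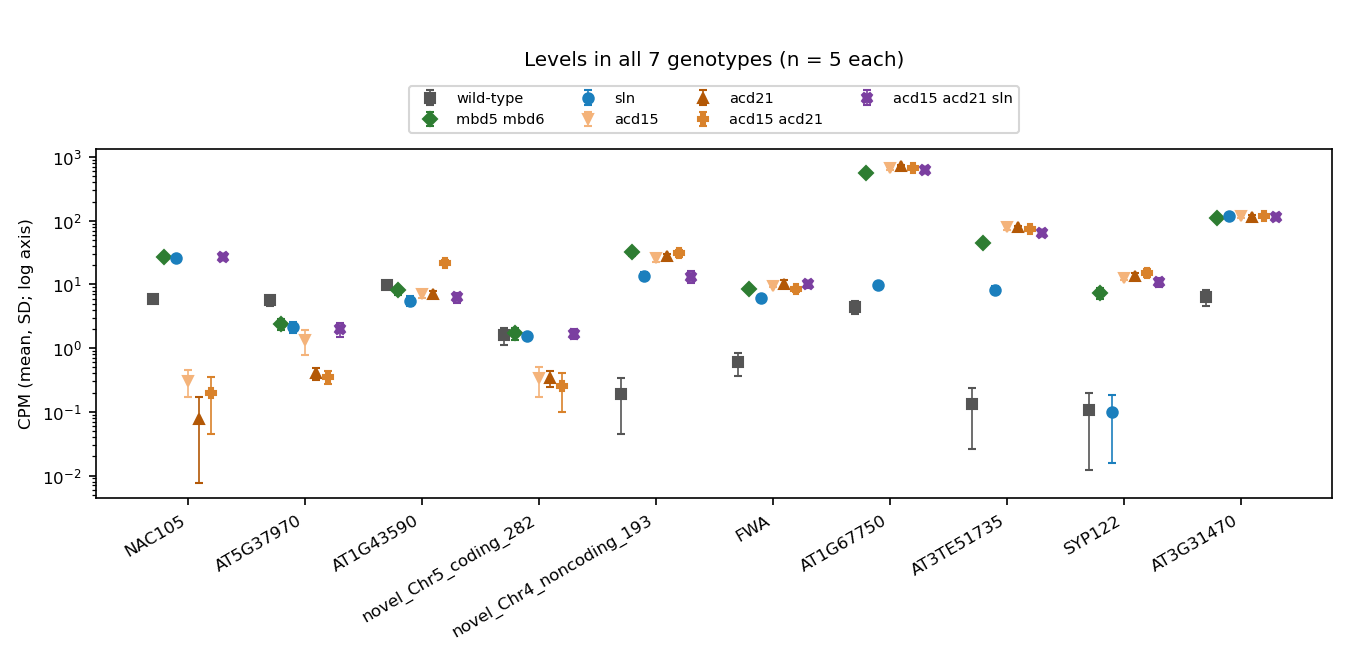
Mean CPM of 10 features in all 7 genotypes on a log axis, with the SD of 5 libraries; lower bars are shortened where the SD would reach 0. NAC105, AT5G37970 and novel_Chr5_coding_282 show acd15, acd21 and acd15 acd21 lowest and mbd5 mbd6, sln and acd15 acd21 sln together, while AT1G67750, AT3TE51735 and SYP122 show sln alone near wild-type or between.

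In the gene lists, 4 members had a called interaction. Against 3.77% of all features, fewer than 1 call would fall in a list of the size tested here, so neither an absence of calls nor 1 or 2 calls can be read as a result about a list. None of 8 tested genes of DNA methylation and silencing (of 17 listed) and none of 6 J-domain and folding co-chaperone genes (of 12) had a called interaction, with list medians of -0.11 and -0.01. In DNA demethylation 1 of 4 tested genes (of 8) was called, lower than the sum: DML1, also known as ROS1, a DNA glycosylase that removes methylated cytosine. It was at 0.712, 1.25, 1.60 and 1.17 CPM (interaction -1.24 ± 0.32, adjusted p = 0.0212 in edgeR), and the call was lost within either batch (0.556 and 0.225), without sln replicate 1 (0.0602) or 5 (0.0565) and without the 3 outlying libraries (0.0657). DESeq2 did not call it either (adjusted p = 0.0628 in DESeq2). In post-transcriptional silencing 1 of 3 tested genes (of 8) was called, AGO5, an Argonaute of the germ line. It was at 5.67, 7.58, 6.59 and 5.51 CPM (-0.67 ± 0.14, adjusted p = 0.00264 in edgeR, and 0.650 within batch 1).

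Among 26 heat shock genes and regulators 15 were tested and none had a called interaction; their median was 0.54, and their summed level ran from 87.9 to 216 CPM in wild-type, 81.1 to 111 in sln, 85.2 to 129 in the double and 78.7 to 104 in the triple mutant. Of 22 tested vegetative cell and pollen tube markers (of 24) none was called, with a median of 0.22 and summed levels of 35160 to 42320, 26770 to 41070, 31960 to 41030 and 34120 to 45790 CPM in the same order. Of 10 tested sperm cell markers (of 11), 2 were lower than the sum, and the list median was -0.24. These were DAZ2, a zinc finger gene activated by DUO1, and DAU2, also a DUO1-activated gene. DAZ2 was at 8.54, 12.7, 9.69 and 9.78 CPM (-0.53 ± 0.14, adjusted p = 0.0254 in edgeR), and its call was lost within batch 1 (0.847) and without any of 6 single libraries (wild-type replicate 1 or 3, sln replicate 5, double mutant replicate 1, triple mutant replicate 3 or 5; adjusted p = 0.0523 to 0.0674). DAU2 was at 72.3, 83.7, 81.5 and 77.0 CPM (-0.28 ± 0.06, adjusted p = 0.00217 in edgeR, and 0.463 and 0.0751 within batches 1 and 2). The summed sperm marker level ran from 1176 to 1269 CPM in wild-type, 1031 to 1236 in sln, 1206 to 1283 in the double and 1111 to 1387 in the triple mutant.

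Markers of other tissues were low and had no called interaction. None of 12 anther tapetum markers was abundant enough to test, 4 had no count in any library, and their summed level was at most 1.84 CPM. Of 15 leaf photosynthesis markers 13 were tested, with a median interaction of -0.53 and summed levels of 22.4 to 66.6, 34.9 to 53.2, 30.1 to 47.8 and 23.4 to 39.0 CPM in wild-type, sln, the double and the triple mutant. Their part in the interactions was not tested.

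The called interactions had the same sign in both batches, though not all were called within each. Fitted in batch 1 alone over the same 11640 features, all 439 had the same sign and 170 were called; in batch 2 alone all 439 had the same sign and 282 were called. Each batch is part of the 20 libraries that made the calls, which favours a shared sign. The abundance filter also used all 20, so features silent in wild-type lean to a lower interaction in either batch. Refiltered, batches 1 and 2 alone called only 7 and 30 interactions higher than the sum. Recurrence of the higher interactions was therefore little examined. Of 174 interactions called in batch 1, 172 had the same sign in batch 2, and of 301 called in batch 2, 295 had the same sign in batch 1, against 61.8% of all features. Among the lower calls, the median interaction of those called in batch 1 was -2.78 there and -2.75 in batch 2, and of those called in batch 2 it was -2.30 there and -1.82 in batch 1.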

How the data were processed

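Each library is a table of read counts for 66429 features. Per the submitters' processing notes, which give no versions, the authors used Trim Galore, STAR, HTSeq and deepTools with the TAIR10 build before the counts were deposited. Libraries were TruSeq Stranded, per the labels' protocols. The strand setting of the counting, the treatment of reads with several alignments and the source of the added transcripts are each not given in the sources used here. Overlapping, antisense and repeated features are therefore uncertain. The 5 summary lines of each table were kept out of library sizes; reads in no feature were 0.217 to 0.944% and ambiguous reads 0.108 to 0.135%. Total counts had a median of 13793964.5, and counting intervals and floors cover counting error only.

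The 20 libraries of 4 genotypes were fitted with edgeR 4.0.16 in R 4.3.3, using TMM scaling, the filterByExpr rule (count of at least 10, total of at least 15), robust quasi-likelihood dispersions, and terms for genotype and batch. Benjamini-Hochberg adjustment ran over all 11640 tested features, with calls at an adjusted p of 0.05. A standard error is the absolute log2 change divided by the square root of F. CPM values were scaled by TMM over all 35 libraries, on the same features. The fit was tested on simulated counts, with changes planted only in features at a mean of 1 CPM or more. Features with the lowest levels in any genotype, or far from additive in these data, received no planted change. The simulation therefore does not cover features silent in wild-type. Replicates differed by more than sampling noise, so none was merged.

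Named features were the mutated genes and MBD5 and MBD6, the 10 largest called interactions in each direction at 1 CPM or more in at least 1 genotype, 5 features per class (smallest interaction p, or largest change from wild-type where no interaction was called), features called in opposite directions in sln and the double, and members of 10 gene lists with a called interaction. The members and lists were chosen with earlier results of these data known. Gene positions and upstream sequences are from RefSeq for TAIR10.1. Alternatives were RLE scaling, no filter, DESeq2 1.42.0, all 35 libraries, a replicate block, a covariate for reads in no feature, each batch alone, an adjusted p of 0.01, leaving out each library, and leaving out 3 outlying libraries, the last chosen after seeing the data.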

Additional observations from a re-analysis of the deposited data

Results flagged for a closer look

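Of 192 groups of 5 libraries examined for the features named here, 13 had a library apart from the other 4 by Dixon's criterion, which chance flags in about 1 group in 20. In wild-type, replicate 1 was high for FWA (1.02 CPM) and FRO4 (2.74) and low for AGO5 (4.39), replicate 2 was high for novel_Chr4_coding_55 (2.67, against at most 1.56), and replicate 4 held the only novel_Chr4_coding_54 count (0.0630). In sln, replicate 4 was high for novel_Chr3_noncoding_833 (1.70) and AT1G35115 (32.9), and the only counts of AT5G15360 (0.0360 CPM) and AT1TE62360 (0.0657 CPM) were in replicates 5 and 1. In the double mutant, replicate 1 was low for novel_Chr4_coding_54 (13.25, against 15.2 to 15.9), replicate 2 low for AT5G15360 (2.09) and replicate 5 high for SLN (4.98). In the triple mutant, replicate 5 was high for SYP122 (13.9 CPM).

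In 18 of the named features a mutation was called in opposite directions in the presence and absence of the other. The sln effect turned from higher to lower in plants without ACD15 and ACD21 for novel_Chr4_coding_55 (interaction -6.91), AT4TE21020 (-2.62), AT4TE17125 (-5.36), AT1TE70815 (-3.54), AT5TE39425 (-2.33), AT3TE53895 (-5.94), AT4G07498 (-4.32), AT4G06688 (-4.97) and novel_Chr4_noncoding_193 (-7.27). The same held for 6 features with at most 2 wild-type counts, for which the triple mutant minus the double is given: novel_Chr4_coding_54 (-2.002), novel_Chr3_noncoding_833 (-0.47), novel_Chr2_merged_2 (-1.195), novel_Chr3_coding_275 (-2.60), the transposable element AT5TE47400 (-0.58) and the pseudogene AT4G06608 (-1.43). It turned from lower to higher for AT5G37970 (interaction 3.94), AT5G22355 (3.80) and novel_Chr3_noncoding_436 (3.40). For novel_Chr4_coding_55, AT4TE21020, AT4TE17125, novel_Chr4_coding_54 (triple minus sln -1.005) and AT5G22355 the effect of acd15 acd21 turned as well. All of these are log2 values, and the interaction of each was called by edgeR.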

How the results depend on the processing

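Of 45 called interactions of named features, none reversed under any alternative; all 45 were called with RLE scaling, no filter, all 35 libraries, the replicate block and the covariate, 44 in DESeq2, 34 in batch 1, 41 in batch 2, and 43 both at an adjusted p of 0.01 and without the 3 outlying libraries. Apart from features left without an adjusted p in DESeq2, the cause of the moves below was not tested. Replicate numbers gave little sign of pairing the libraries. The r was over 0.1 for 6 of 30 same-numbered pairs, 3 in replicate 4 and 3 in replicate 5, and at most 0.265. The replicate block gave 185 interactions higher than the sum and 151 features with the double. Without the filter there were 260 interactions higher, 770 double against wild-type calls, 590 triple against sln, and 378 with both, 226 with the double and 274 sum or double. DESeq2 gave 196 higher, 529 triple against sln, and 132 with both, 32 with sln, 157 with the double, 313 sum or double and 44 sum or sln. It left 124 of the 246 features with both, 27 of the 65 with sln and 25 of the 88 with the double unsorted. These lacked an adjusted p for a call used in the sorting. All 35 libraries gave 195 higher, 515 triple against sln, 173 with the double, 38 sum and 258 sum or double. The covariate gave 99 sum or double. Batch 1 alone, refiltered, gave 161 lower and 7 higher, calls of 199 in sln, 259 in the double and 303 in the triple mutant, 40 triple against double, 29 triple against sln, and classes of 129 with both, 24 with sln, 13 with the double, 2 neither, 1 sum, 13 sum or double and 13 sum or sln. Batch 2 alone, refiltered, gave 30 higher, 78 triple against double, 38 with sln, 9 neither, 8 sum and 23 sum or sln. An adjusted p of 0.01 gave 34 higher, 373 in sln, 108 triple against double, 116 triple against sln, 41 with the double, 13 neither, 8 sum, 54 sum or double and 41 sum or sln. Without the 3 outlying libraries there were 777 double against wild-type calls, 101 triple against double, 478 triple against sln, 22 neither, 13 sum, 340 sum or double and 22 sum or sln. With 1 library left out at a time, interactions ran from 314 to 399 lower and 58 to 153 higher. Calls ran from 412 to 595 in sln, 433 to 526 in the double, 511 to 876 in the triple mutant, 148 to 213 for triple against double and 151 to 757 for triple against sln. Classes ran from 225 to 285 with both, 55 to 79 with sln, 49 to 176 with the double, 22 to 57 neither, 12 to 28 sum, 58 to 496 sum or double and 48 to 90 sum or sln. Of the 439 interactions, between 164 (batch 1) and 437 (replicate block) were called again under the alternatives. Features near 1 CPM rest on few counts, and for these a difference between mutants below their intervals was not detectable.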
